A study of Saccharomyces cerevisiae with 6 samples.

Results

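Hexose transport and phosphorylation is described here through 10 genes of the budding yeast Saccharomyces cerevisiae: the hexokinase genes HXK1 and HXK2, the glucokinase gene GLK1, and the hexose transporter genes HXT1 to HXT7. They were chosen by name as the kinases that trap glucose inside the cell and the main carriers that bring it in. The choice was made with earlier results of these data known, so their counts beside all-spot shares are descriptive. Each of the 10 stood on 1 spot among 6084 spots and 5490 named genes. Transcript ratios came from 3 strains, all labelled as without iron: the wild type CM3260 (wt), the strain Y18 (aft1), and Y18aft2delta, which the labels give as aft1aft2. The 3 pairs of strains were each compared in experiments 1 and 2, which makes 6 samples. Cells were taken in exponential growth, and 5 µg of total RNA was copied and hybridised to nylon GeneFilters membranes, which carry spotted yeast DNA. No sample with iron was compared, so the ratios set strains against each other within iron depletion. The sources used here do not give the kind of aft1 mutation, the rest of each strain's genotype, or whether the experiments were separate cultures.

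Yeast takes up glucose by facilitated diffusion through Hxt carriers, and it makes different carriers for different sugar levels. Hxt1 and Hxt3 are low-affinity carriers of cells with ample glucose, Hxt6 and Hxt7 are high-affinity carriers used when glucose is scarce, Hxt2 and Hxt4 are induced by small amounts of glucose, and Hxt5 is known from slow-growing and starved cells. Inside the cell, Hxk1, Hxk2 and Glk1 attach a phosphate to glucose, which commits it to glycolysis, glycogen or trehalose. Hxk2 is the main kinase on glucose and also takes part in glucose repression, while HXK1 and GLK1 are known as genes that glucose represses and that stress induces. Aft1 and Aft2 are transcription factors that activate iron uptake genes when iron is low.

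Values are log2 ratios, mutant over reference, centred on the median of their column, so 0 is the typical spot and 1 is a doubling. The logarithm's base and the direction of the ratio are not stated in the sources. Base 2 was assumed, and another base would change the folds and not the order or the signs. Reading the first-named strain as the numerator is likely from the titles. With that reading FET3, the iron oxidase gene that Aft1 is known to activate, stood at -3.43 ± 0.25 in aft1 and -3.49 ± 0.25 in aft1aft2, both against wt. The opposite reading would turn every sign below. Errors are standard errors (SE) from limma, n = 2 hybridisations a strain, and a gene passed the test at a Benjamini-Hochberg adjusted p of 0.05 over all spots.

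The spots of the mutated genes did not check the labels. AFT1 was 0.15 and -0.09 in experiments 1 and 2 of aft1 against wt, and -0.33 and -0.85 in aft1aft2 against wt. AFT2 was -0.40 and 1.96 in aft1aft2 against wt, opposite ways in the 2 experiments. None of these passed the test (limma adjusted p = 0.970, 0.243 and 0.441), and the sources used here do not say which part of each gene was removed. The strain names therefore stand for the labels of the hybridisations. Over all spots experiments 1 and 2 correlated at r = 0.553 for aft1 and 0.449 for aft1aft2, each against wt, and at 0.554 for the direct comparison of the mutants. These are correlations across spots, which are not independent replicates.

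In aft1 against wt, transcripts of the low-affinity carrier HXT1 and the hexokinase HXK1 rose 3.52-fold and 2.98-fold, and GLK1 stood nearly as high without passing the test. HXT1 reached 1.82 ± 0.24 (SE, n = 2) with a limma adjusted p of 0.0290. HXK1 reached 1.58 ± 0.23 (adjusted p = 0.0348). Of the 10 genes 2 rose and 0 fell, beside 0.838% of all spots that rose and 0.625% that fell. The median of the 10 genes was 0.58, against 0.01 over all spots. At an unadjusted p under 0.05 stood 5 of the 10, and 15.4% of all spots.

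**Figure D1:**
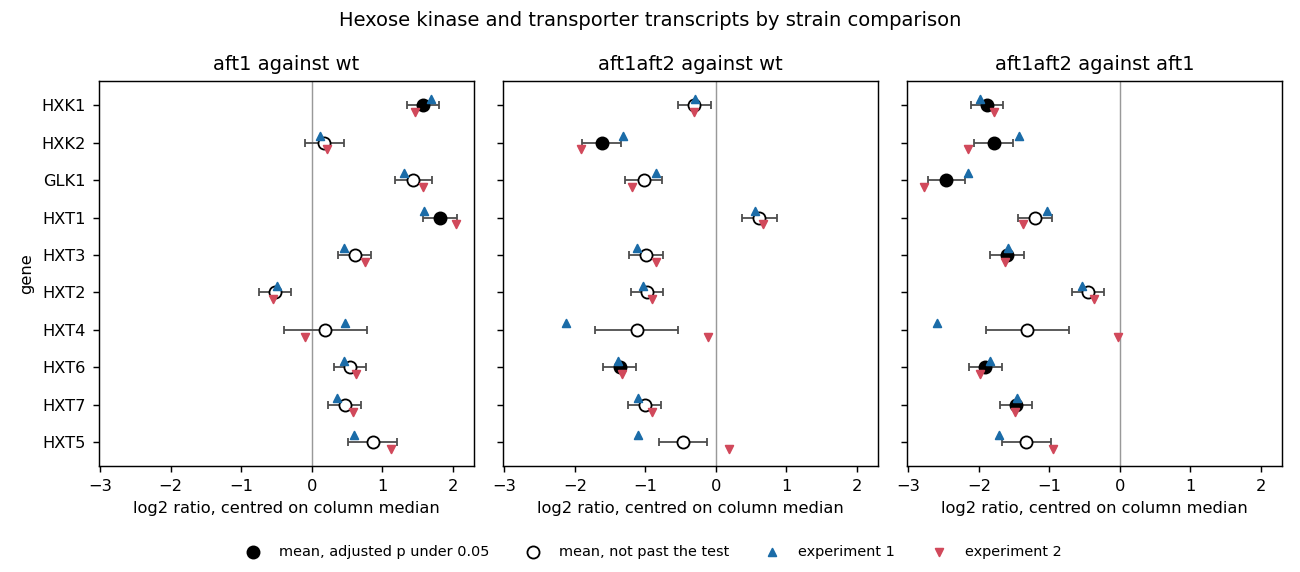
Log2 ratio (horizontal axis, centred on the column median) of each of the 10 genes in the 3 strain comparisons. Triangles are experiments 1 and 2, circles are the limma mean with its SE (n = 2 hybridisations a strain), and filled circles passed the test. HXK1 and HXT1 are filled on the right in aft1 against wt, and all 10 means lie left of 0 in aft1aft2 against aft1.

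Among the kinases, HXK1 was 1.69 in experiment 1 and 1.46 in experiment 2. GLK1, whose product phosphorylates glucose but not fructose, was 1.30 and 1.57, a mean of 1.44 ± 0.26 (adjusted p = 0.0664). HXK2 was 0.12 and 0.22, a mean of 0.17 ± 0.27 with a 95% confidence interval from -0.49 to 0.84. With HXT1, the genes at least 2-fold up in both experiments were 3 of the 10, beside 1.92% of all spots, and HXK2 lay among the typical spots.

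Among the low-affinity carriers, HXT1 was 1.59 and 2.04, at place 29 from the top of all 6084 spots. HXT3 was lower than HXT1 in both experiments, at 0.45 and 0.76, and its mean of 0.61 ± 0.24 did not pass (adjusted p = 0.295). The high-affinity pair stood close to HXT3, with HXT6 at 0.45 and 0.63 and HXT7 at 0.35 and 0.58. Means of HXT6 and HXT7 were 0.54 ± 0.23 and 0.47 ± 0.23, neither past the test. The genes HXT6 and HXT7 are nearly identical in sequence, so each spot may also catch the other's transcript, and the pair is not 2 separate measurements.

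HXT5 was 0.60 and 1.12, a mean of 0.86 ± 0.34 that did not pass (adjusted p = 0.310). HXT2 was the 1 gene below 0 in both experiments, at -0.50 and -0.55, with a mean of -0.52 ± 0.23 (adjusted p = 0.344). HXT4 was 0.47 and -0.09, on both sides of 0. Ordered by their means the genes ran HXT1, HXK1, GLK1, HXT5, HXT3, HXT6, HXT7, HXT4, HXK2 and HXT2. In that order the 95% confidence intervals of all 9 neighbouring pairs overlapped. The ranges of the experiments did not overlap between GLK1 and HXT5 or between HXK2 and HXT2.

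The calls in aft1 against wt rested on few hybridisations. Leaving out any 1 wt or aft1 hybridisation lost calls, both among the 10 genes and over all spots. Each of these fits leaves a strain with 1 hybridisation, so their calls are not listed. Over these 4 fits HXK1 lay between 1.47 and 1.68 and HXT1 between 1.62 and 2.02.

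In aft1aft2 against wt HXK2 and HXT6 fell, and 9 of the 10 means lay below 0. HXK2 fell to -1.62 ± 0.27 (SE, n = 2), a 3.07-fold drop with a limma adjusted p of 0.0339. HXT6 fell to -1.36 ± 0.23, or 2.58-fold (adjusted p = 0.0332). Of the 10 genes 0 rose and 2 fell, beside 0.723% of all spots that rose and 3.71% that fell. The median of the 10 genes was -1.0, against 0.02 over all spots, and 7 of the 10 had an unadjusted p under 0.05, as did 21.4% of all spots. At least 2-fold down in both experiments were the same 2 genes, beside 4.31% of all spots.

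HXK2 was -1.31 in experiment 1 and -1.92 in experiment 2. GLK1 was -0.85 and -1.20, a mean of -1.02 ± 0.26 that did not pass (adjusted p = 0.0906). HXK1 stayed near the typical spot at -0.29 and -0.32, a mean of -0.31 ± 0.23 with a 95% confidence interval from -0.87 to 0.26. Of the kinases HXK2, which encodes the enzyme of cells with ample glucose, was the lowest in both experiments.

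HXT6 was -1.39 and -1.33, and its near-copy HXT7 was -1.11 and -0.91. The mean of HXT7, -1.01 ± 0.23, did not pass (adjusted p = 0.0730). HXT3 and HXT2 had almost the same values as HXT7, with HXT3 at -1.12 and -0.85 and HXT2 at -1.04 and -0.91. Neither passed, with means of -0.99 ± 0.24 for HXT3 (adjusted p = 0.0786) and -0.97 ± 0.23 for HXT2 (adjusted p = 0.0763). These carriers span low, moderate and high affinity for glucose.

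HXT1 was the 1 carrier above 0 in both experiments, at 0.56 and 0.68. Its mean of 0.61 ± 0.24 did not pass (adjusted p = 0.221). HXT4 was -2.13 in experiment 1 and -0.10 in experiment 2, so its mean of -1.12 ± 0.59 rests on experiment 1. Without aft1aft2 replicate 1 the value of HXT4 was 0.03. HXT5 was -1.11 and 0.19, with a mean of -0.46 ± 0.34, and was 0.05 without aft1aft2 replicate 1. The order of means ran HXT1, HXK1, HXT5, HXT2, HXT3, HXT7, GLK1, HXT4, HXT6 and HXK2. Confidence intervals overlapped for all 9 neighbouring pairs, and the ranges of the experiments did not overlap between HXT1 and HXK1.

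Both calls in this comparison depended on the set of hybridisations. Leaving out any 1 hybridisation other than aft1aft2 replicate 1 lost calls, both among the 10 genes and over all spots. Each such fit leaves a strain with 1 hybridisation, so its calls are not listed. With 1 hybridisation left out HXK2 lay between -1.95 and -1.285 and HXT6 between -1.425 and -1.306. Without centring, where the median of all spots stood at 0.54, 0 passed and HXK1 and HXT5 turned to 0.21 and 0.05. Over all spots the 44 rises and 226 falls became 36 and 36 without centring, and falls no longer outnumbered rises without aft1aft2 replicate 1.

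In the direct comparison of aft1aft2 with aft1, all 3 kinase genes and the carrier genes HXT3, HXT6 and HXT7 fell, between 2.78-fold and 5.51-fold. GLK1 fell furthest, to -2.46 ± 0.26 (SE, n = 2; limma adjusted p = 0.00914). All 10 genes lay below 0 in both experiments. Of the 10 genes 6 fell and 0 rose, beside 2.60% of all spots that fell and 0.230% that rose. The 6 include HXT6 and HXT7, which are not 2 separate measurements. The median of the 10 genes was -1.54, against 0.03 over all spots. An unadjusted p under 0.05 was reached by 8 of the 10, as by 22.6% of all spots, and 7 of the 10 were at least 2-fold down in both experiments, as were 3.88% of all spots. This comparison is not independent of the 2 before it, since each ratio of aft1aft2 to wt equals the sum of the other log ratios of its experiment within 0.01.

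GLK1 was -2.15 in experiment 1 and -2.78 in experiment 2, which put it at place 6050 of 6084 from the top. HXK1 was -1.98 and -1.79, a mean of -1.88 ± 0.23 or a 3.69-fold fall (adjusted p = 0.0153). HXK2 was -1.43 and -2.16, a mean of -1.79 ± 0.27 or a 3.46-fold fall (adjusted p = 0.0294). By their means against wt, the kinases reached this difference from different sides. HXK1 was high in aft1, HXK2 was low in aft1aft2, and GLK1 lay above 0 in aft1 and below 0 in aft1aft2. GLK1 passed in neither comparison against wt, and the kinases were not tested against each other.

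HXT6 was -1.84 and -1.98, a mean of -1.91 ± 0.23 or a 3.75-fold fall (adjusted p = 0.0144). HXT3 was -1.58 and -1.63, a mean of -1.60 ± 0.24 or a 3.03-fold fall (adjusted p = 0.0257). HXT7 was -1.46 and -1.49, a mean of -1.47 ± 0.23 or a 2.78-fold fall (adjusted p = 0.0329). For HXT3, HXT6 and HXT7 the experiments lay within 0.14 of each other.

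HXT1 was -1.03 and -1.38, at least 2-fold down in both experiments, and its mean of -1.20 ± 0.24 did not pass (adjusted p = 0.0661). HXT5 was -1.71 and -0.95, a mean of -1.33 ± 0.34 (adjusted p = 0.103). The value of HXT4 was -2.60 in experiment 1 and -0.03 in experiment 2, and without aft1aft2 replicate 1 it was -0.16. HXT2 was -0.54 and -0.37, the mean nearest 0 of the 10 at -0.45 ± 0.23, with a 95% confidence interval from -1.01 to 0.10. Neighbours in the order of means had overlapping confidence intervals in all 9 pairs. The ranges of the experiments did not overlap between HXT2 and HXT1, HXT7 and HXT3, or HXT6 and GLK1.

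Leaving out aft1 replicate 1, aft1 replicate 2 or aft1aft2 replicate 2 lost calls, both among the 10 genes and over all spots. Each fit with 1 hybridisation left out leaves a strain with 1, so its calls are not listed. Over these fits GLK1 lay between -2.706 and -2.218 and HXT7 between -1.539 and -1.409. Without centring, where the median of all spots stood at 0.28, 1 passed, GLK1, and all 10 means remained below 0. Over all spots the 158 falls and 14 rises became 50 and 2 without centring, and falls no longer outnumbered rises without aft1aft2 replicate 1.

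**Figure D2:**
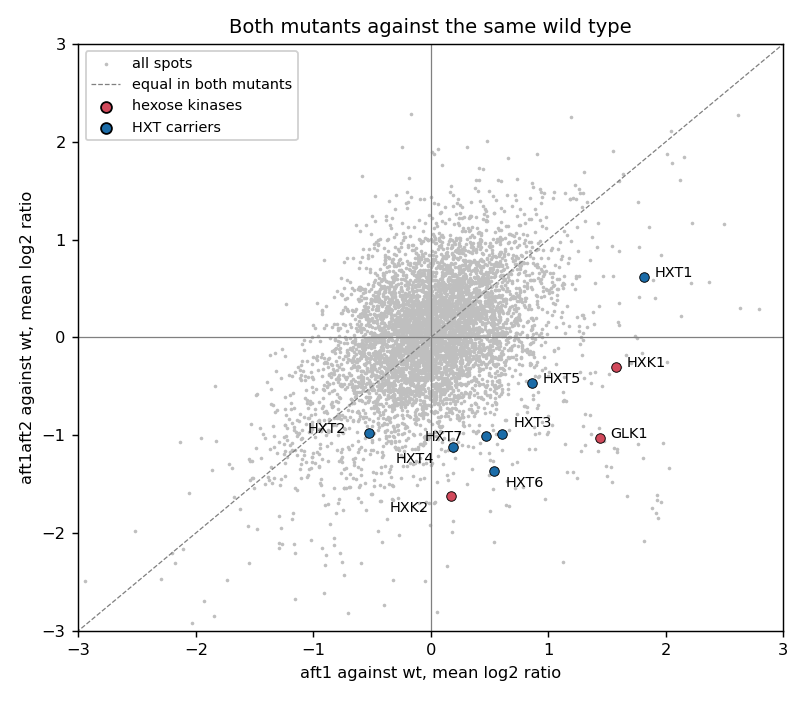
Mean log2 ratio of aft1 against wt (horizontal axis) and of aft1aft2 against wt (vertical axis) for all spots in grey and the 10 genes in colour, red for kinases and blue for carriers. The axes stop at 3 and leave out 25 of the spots. Both axes share the wt hybridisations, so a slope between them is no result, and a point below the dashed line is lower in aft1aft2 than in aft1. All 10 genes lie below that line.

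Of the 7 carrier genes 6 lie in clusters on the chromosomes. In the gene table of the R64 assembly HXT7 and HXT6 are next to each other, with YDR344C between HXT6 and HXT3. HXT4, AHT1, HXT1 and HXT5 follow each other in another cluster. The cluster of HXT3, HXT6 and HXT7 gave means between 0.47 and 0.61 in aft1 against wt and between -1.36 and -0.99 in aft1aft2 against wt. In the cluster of HXT4, HXT1 and HXT5 the means ran from 0.19 to 1.82 in aft1 against wt and from -1.12 to 0.61 in aft1aft2 against wt. Carriers of the Hxt family are similar in sequence, and how far their spots read each other's transcripts was not tested.

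The spots most like each passing gene were found by Euclidean distance over the 4 ratios against wt, 2 comparisons in 2 experiments. HXT7 lay nearest to GCD11 at a distance of 0.124 and then to HXT3 at 0.212, and HXT3 lay nearest to HXT7 and then to GCD11 at 0.313. HXT6 lay nearest to YNL190W at 0.212 and PLB2 at 0.282. For HXK2 the nearest were TKL1 at 0.308 and LAP3 at 0.344, and for HXK1 NRG2 at 0.324 and ALD6 at 0.503. HXT1 was nearest to ECL1 at 0.381 and ERG5 at 0.479. GLK1 was nearest to YHR214C-B at 0.177 and YER138C at 0.322. With 4 ratios that share wt, such likeness is a description only. Between the genes studied the closest pairs were HXT3 and HXT7 at 0.212, HXT6 and HXT7 at 0.525, HXT3 and HXT6 at 0.566 and HXK2 and HXT6 at 0.787.

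None of the other transporter family genes examined passed the test. Of 10 further family genes, HXT8 to HXT11, HXT13 to HXT17 and the galactose permease gene GAL2, 0 passed the limma test in any of the 3 comparisons. Over all spots 0.838%, 0.723% and 0.230% rose and 0.625%, 3.71% and 2.60% fell, in the order of the comparisons above. At these shares 0 of 10 does not set these genes apart from all spots. The same all-spot shares apply to the lists below. By limma 0, 0 and 1 of the 10 had an unadjusted p under 0.05, beside 15.4%, 21.4% and 22.6% of all spots. In aft1aft2 against aft1 their median was 0.11, and 9 of the 10 means lay above 0. The largest in aft1 against wt was HXT11 at 0.62 ± 0.30. HXT17 was largest in the other comparisons, with -0.91 and 2.42 in the 2 experiments of aft1aft2 against wt and -0.29 and 2.08 in aft1aft2 against aft1.

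Genes for sensing glucose showed no call. Of 10 genes of the sensors Snf3 and Rgt2 and of the Rgt1 repressor they control, 0 passed in the 3 comparisons by limma, with 0, 1 and 2 of them at an unadjusted p under 0.05, in the order of the comparisons above. Over all spots these shares were 15.4%, 21.4% and 22.6%. MTH1, which encodes a co-repressor of HXT genes, was the largest in aft1 against wt at 0.55 ± 0.36 and in aft1aft2 against aft1 at -1.21 ± 0.36 (adjusted p = 0.132). The casein kinase gene YCK2 was the largest in aft1aft2 against wt at -0.71 ± 0.25 (adjusted p = 0.176). The medians of the list were 0.00, -0.22 and -0.24 in the order of the comparisons above, and 5, 0 and 1 of the 10 means lay above 0.

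Of 14 genes of glucose repression by the Snf1 kinase and the Mig1 repressor, HXK2 alone passed, as given above. HXK2 is itself among the hexokinase genes studied here, so the list adds no call to those above. Limma gave 1, 1 and 2 of the 14 an unadjusted p under 0.05, beside 15.4%, 21.4% and 22.6% of all spots. The counts in aft1aft2 against wt and against aft1 include HXK2. The largest in aft1 against wt was the repressor gene MIG2 at 0.80 ± 0.24 (adjusted p = 0.180), and the medians were 0.26, 0.30 and -0.10. Of 20 other genes that glucose represses 0 passed in any comparison by limma. This list leaves out HXK1 and GLK1, whose calls are given above. At an unadjusted limma p under 0.05 stood 4, 4 and 2 of the 20, near or below the 15.4%, 21.4% and 22.6% of all spots. The medians of the 20 were -0.05, 0.08 and 0.07. The largest values were ADR1 at -1.15 ± 0.27 in aft1 against wt, the maltose permease gene MAL11 at -1.03 ± 0.25 in aft1aft2 against wt, and the aldehyde dehydrogenase gene ALD4 at -1.15 ± 0.25 in aft1aft2 against aft1.

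Of 15 genes listed around hexose phosphates, 0, 0 and 0 rose and 0, 2 and 0 fell in the 3 comparisons. Over all spots 0.625%, 3.71% and 2.60% fell. PMI40, the mannose-6-phosphate isomerase gene, fell in aft1aft2 against wt to -2.15 ± 0.24 (adjusted p = 0.0119). UGP1, whose product makes UDP-glucose, fell there to -1.14 ± 0.23 (adjusted p = 0.0494). In aft1aft2 against aft1 UGP1 was the largest at -1.23 ± 0.23 and missed the threshold (adjusted p = 0.0502), and 14 of the 15 means lay below 0. Limma gave 5, 5 and 7 of these 15 genes an unadjusted p under 0.05 in the 3 comparisons, beside 15.4%, 21.4% and 22.6% of all spots. PGM2, a phosphoglucomutase gene, was the largest in aft1 against wt at 1.24 ± 0.26 (adjusted p = 0.0807). The medians were 0.10, -0.41 and -0.59.

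**Figure D3:**
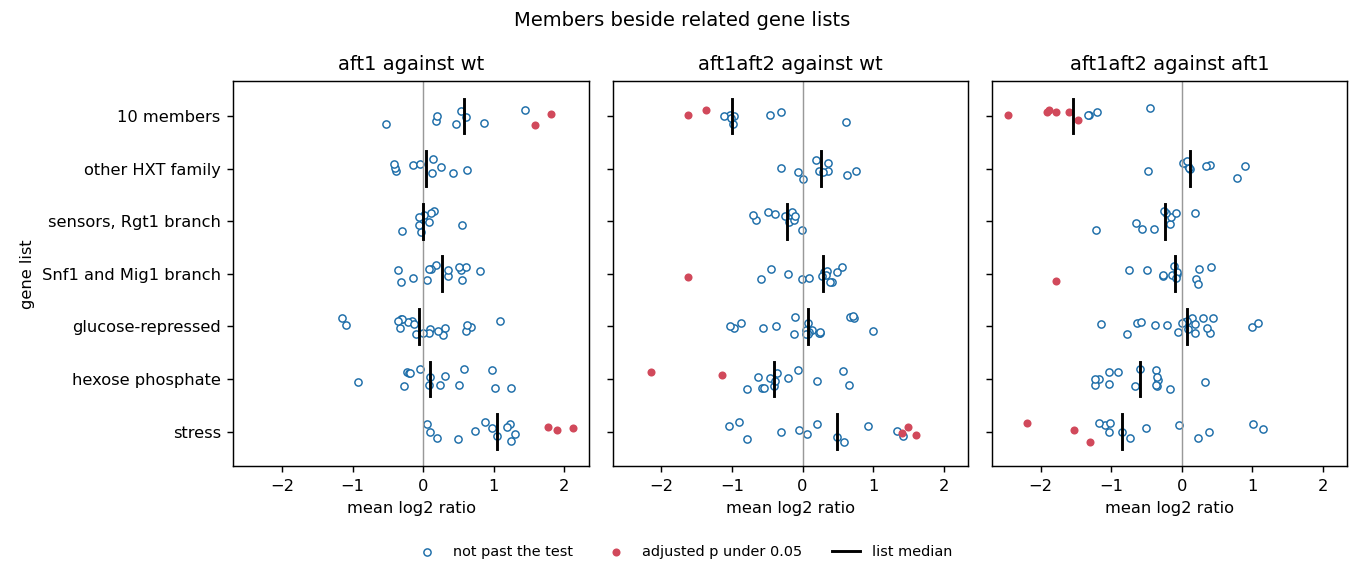
Mean log2 ratio (horizontal axis) of each gene in the 10-gene group and in 6 related lists, for the 3 comparisons. Red points passed the test, open points did not, and a black bar is the median of a list. The medians of the 10 genes were 0.58, -1.0 and -1.54, and those of the other HXT family genes 0.04, 0.27 and 0.11.

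Of 15 stress genes 3 passed the test in each comparison, and they were not the same genes each time. Of 16 listed stress genes 15 had a spot, and PGM2 was also in the hexose phosphate list. Limma gave 11, 10 and 11 of the 15 an unadjusted p under 0.05, beside 15.4%, 21.4% and 22.6% of all spots. In aft1 against wt 3 rose and 0 fell, beside 0.838% and 0.625% of all spots. They were TSL1 at 2.12 ± 0.24, TPS2 at 1.89 ± 0.24 and HSP104 at 1.77 ± 0.24. All 15 means lay above 0 with a median of 1.04. TSL1 and TPS2 encode parts of the trehalose synthase complex, and HSP104 a protein disaggregase. In aft1aft2 against wt 3 rose and 0 fell, beside 0.723% and 3.71% of all spots. They were TSL1 at 1.61 ± 0.24, the catalase gene CTT1 at 1.50 ± 0.24 and HSP42 at 1.42 ± 0.23. There 10 of the 15 means lay above 0, from GRE3 at -1.04 ± 0.40 to TSL1, with a median of 0.49. In aft1aft2 against aft1 3 fell and 0 rose, beside 2.60% and 0.230% of all spots. They were the chaperone genes SSA4 at -2.20 ± 0.24 and HSP26 at -1.52 ± 0.24 and TPS2 at -1.30 ± 0.24. Here 4 of the 15 means lay above 0, up to HSP12 at 1.15 ± 0.34, with a median of -0.85. GRE3 and HSP12 are named as the ends of the range, after their values were seen. The part of stress in the values of HXK1 and GLK1 was not tested.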

How the data were processed

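Per the labels, GeneFilters membranes were exposed for 3 days, read on a Storm 860 and quantified with PATHWAYS 3. The values deposited by the authors are log ratios, taken as log2; the sources used here do not give their background correction and normalisation, and the depth behind a spot is unknown. The number of membranes limits the precision. The table held 6084 spots, 0 missing values and 0 unused columns. The platform annotation named 5523 spots, 0 with several symbols and 561 with none, and 100% of named spots matched the R64 gene table.

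Columns were turned to mutant over reference and centred; their medians had been 0.31 and 0.22 (aft1 against wt), 0.40 and 0.625 (aft1aft2 against wt), 0.09 and 0.42 (aft1aft2 against aft1). Because ratios within an experiment are additive, samples of 1 number share hybridisations and are paired; their deviations between experiments correlated at 0.544, -0.210 and 0.706. Least-squares strain levels from these 6 hybridisations were fitted in limma 3.58.1 (R 4.3.3) with strain and experiment terms, 2 residual degrees of freedom, two-sided, adjusted over all spots. P-values reflect only the variation among these hybridisations, and it may be technical. The 10 genes and the lists were chosen with earlier results of these data known. All 10 genes are named; of each list, up to 3 passing genes with the largest ratios are named, or else the 1 largest. Alternatives were no centring, scaling, quantile normalisation, no block, a robust prior, separate fits, a 2-fold rule and leaving out hybridisations.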

Additional observations from a re-analysis of the deposited data

Results flagged for a closer look

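Effects against wt differed between the mutants for 6 of the 10 genes in the direct limma test of aft1aft2 against aft1. That is the test of the difference, and in it 2.6% of all spots fell and 0.23% rose. The 6 include the near-copies HXT6 and HXT7. The difference was -2.46 for GLK1, -1.91 for HXT6, -1.88 for HXK1, -1.79 for HXK2, -1.60 for HXT3 and -1.47 for HXT7, on the log2 scale. In each of these 6 genes both experiments lay above 0 in aft1 against wt and below 0 in aft1aft2 against wt. For HXK1 this rests on centring, since its mean in aft1aft2 against wt was 0.21 with values as deposited. For HXK2 the value in aft1 against wt was -0.031 without aft1 replicate 2. The 6 genes were picked by the difference between these ratios, which favours opposite signs. The share of all spots with opposite signs was not counted, so the signs are a description only. None of the 6 passed in both comparisons against wt, and GLK1, HXT3 and HXT7 passed in neither. Groups of 2 samples are too small to be searched for single outlying samples.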

How the results depend on the processing

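Of 420 recomputed values of the 10 genes, 411 kept their sign. The 10 values that passed as reported were tested again 120 times over 12 settings, in which 47 calls were lost, and the uncalled values were tested 240 times, in which 14 calls were gained. All 10 genes stayed below 0 in aft1aft2 against aft1 in every setting run. The totals of lost and gained calls include fits that leave a strain with 1 hybridisation. Calls over all spots changed between settings too. The genes called in aft1 against wt were 2 as reported, beside 89 of all spots. They were 1 with values as deposited (58 of all spots) and 0 with each comparison fitted alone (44). With columns scaled and with quantile normalisation they were 3, adding GLK1 (217 and 113 of all spots). In aft1aft2 against wt they were 2 as reported, beside 270 of all spots. They were 0 as deposited (72 of all spots), 1 with quantile normalisation (190), 1 fitted alone (157) and 6 with no replicate block (940). In aft1aft2 against aft1 they were 6 as reported, beside 172 of all spots. They were 1 as deposited (52 of all spots), 5 fitted alone (112) and 7 with columns scaled (211). The fit without the block called 3 in aft1 against wt and 8 in aft1aft2 against aft1, beside 590 and 950 of all spots. That fit counts a degree of freedom that ratios within an experiment do not hold. The 2-fold rule without a test gave 3, 2 and 7, and the robust prior changed no call of the 10 genes. Signs turned only for uncalled values. In aft1 against wt, with 1 hybridisation or experiment left out, HXK2 ranged from -0.031 to 0.382 and HXT4 from -0.59 to 0.976. In aft1aft2 against wt HXT4 ranged from -2.27 to 0.029 and HXT5 from -1.11 to 0.18, and with values as deposited HXK1 was 0.21 and HXT5 0.05. The cause of these changes was not tested.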
